A study of Homo sapiens with 120 samples.

Results

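The family of miR-130, miR-301 and miR-454 was followed here through 8 mature microRNAs (miRNAs), chosen by name. Of these, 5 are 3p arms (miR-130a-3p, miR-130b-3p, miR-301a-3p, miR-301b-3p and miR-454-3p) and 3 are 5p arms (miR-130b-5p, miR-301a-5p and miR-454-5p). They come from 5 hairpins and are 8 of the 2652 mature names in the authors' tables, where each has 1 row. All cells were HEK293T, an established human embryonic kidney line, and every line lacked PKR, a kinase that senses double-stranded RNA (dsRNA). In experiment 1 the PKR knockout line itself (the parental line, labelled pOSI17) was set beside lines with an additional knockout of PACT, of TRBP, or of both PACT and TRBP. In experiment 2 the parental line was set beside lines with an additional knockout of Ago2, of both Ago1 and Ago2 (Ago1/2), or of Dicer. Each line received no dsRNA (mock) or a long dsRNA labelled dsGFPc or dsGFPd, and small RNA was sequenced from total RNA and from RNA recovered by Ago Affinity Purification by Peptides (Ago pulldown, APP). Every combination of line, transfection and fraction had 2 libraries, so that a line had 6 libraries per fraction and the 2 experiments had 96.

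The labels give 1 line per knockout with no number of clones, and small RNA libraries do not measure the mRNA of the deleted genes, so the lines are known by their labels alone. This bears on the pulldown of experiment 2, where the Ago2 and Ago1/2 knockouts stood in the opposite order to that in total RNA for several miRNAs. Whether the total RNA and pulldown libraries of these lines carry matching labels was not tested, and below the Ago2 and Ago1/2 knockouts mean the libraries labelled so. Nothing in the labels says that the 2 libraries of a group were separate cultures. The p-values below therefore cover the spread between libraries, which may be technical. The 24 samples of experiment 3 were not analysed here. Reads in the table of mature miRNAs ranged from 406531 to 1104630 per library in total RNA and from 2457547 to 13457933 in the pulldown of experiment 1, and from 910155 to 4340650 and from 1856249 to 7167395 in experiment 2 without the Dicer knockout. The Dicer knockout libraries held only 39916 to 180343 reads in total RNA and 47006 to 593510 in pulldown. The 5 miRNAs chosen to describe HEK293T cells made up 11.4% to 48.6% of the normalised counts outside the Dicer knockout, and 18 markers of liver, muscle, neuron, blood, epithelial, smooth muscle, fibroblast and pluripotent cells together made up 0.00438% to 0.0525%.

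A miRNA is cut from a hairpin by Drosha and then by Dicer, which leaves a short duplex of a 5p and a 3p strand. Dicer works with the dsRNA-binding proteins PACT and TRBP. One strand of the duplex is kept in an Argonaute (Ago) protein as the guide, the other is usually discarded, and bases 2 to 8 of the guide, the seed, select the mRNAs it represses. The 3p arms of this family are its usual guides, and they are known for repressing components of TGF-beta signalling. The 5p arms have other seeds and hence another set of possible targets.

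The mature sequences are shown because the 2 arms behave differently below and because the 3p arms share a seed. The RefSeq table (GRCh38.p14) matched 7 of the 8 members, all but miR-130a-3p. Bases 2 to 8 are in capitals.
miR-130b-3p: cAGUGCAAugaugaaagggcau
miR-301a-3p: cAGUGCAAuaguauugucaaagc
miR-301b-3p: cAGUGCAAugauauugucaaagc
miR-454-3p: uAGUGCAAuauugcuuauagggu
miR-130b-5p: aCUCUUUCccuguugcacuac
miR-301a-5p: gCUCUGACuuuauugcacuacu
miR-454-5p: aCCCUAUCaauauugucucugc

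The 4 matched 3p arms hold the seed AGUGCAA, which 6 of the 2370 mature names in that table share, the other two being miR-3666 and miR-4295. Each 5p seed belonged to 1 name. miR-301a-3p and miR-301b-3p were identical at 21 of 23 positions (91.3%), so reads of the one could be counted for the other, while the other pairs of 3p arms matched at 45.5% to 59.1% of positions. The letters UUGCACU, the reverse complement of the 3p seed, stand at bases 13 to 19 of miR-130b-5p and of miR-301a-5p and are not found in miR-454-5p. They were found in 3 of the 809 5p names (0.371%), and only this strand was searched.

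The 3 hairpins with both arms among the members are shown next, with the 2 mature arms in capitals, because the share of each arm is compared between lines further on.
miR-130b: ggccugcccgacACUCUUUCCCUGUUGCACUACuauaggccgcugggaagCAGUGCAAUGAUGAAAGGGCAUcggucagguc
miR-301a: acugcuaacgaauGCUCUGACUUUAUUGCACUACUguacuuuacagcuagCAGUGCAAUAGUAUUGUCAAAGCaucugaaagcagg
miR-454: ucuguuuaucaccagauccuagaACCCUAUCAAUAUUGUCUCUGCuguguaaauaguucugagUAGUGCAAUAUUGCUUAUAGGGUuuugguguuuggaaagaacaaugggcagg

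In the same RefSeq annotation MIR454 lies at chr17:59137758-59137872 and MIR301A at chr17:59151136-59151221, both on the minus strand, 13263 bases apart and within the span of the gene SKA2. MIR301B at chr22:21652981-21653058 and MIR130B at chr22:21653304-21653385 lie 245 bases apart within the span of LOC107985532. MIR130A lies alone at chr11:57641198-57641286 within its host gene MIR130AHG. Exons and introns of the host genes were not used here.

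In the parental line 7 of the 8 members were measured, and miR-130a-3p was near 0. Values are the authors' normalised counts, which correct for library depth, so that levels of different miRNAs are compared without regard to cloning efficiency. In total RNA of experiment 1, miR-130b-5p had a lowest, median and highest value of 676, 738 and 791. The next were miR-301a-3p (447, 515 and 542) and miR-130b-3p (488, 513 and 584), whose ranges overlapped each other and lay below that of miR-130b-5p. Then came miR-454-3p (244, 257 and 411), miR-454-5p (127, 196 and 257) and miR-301b-3p (142, 166 and 181), each overlapping its neighbour. The miR-301a-5p arm was clearly lower, at 7.87, 33 and 60.4. Together the family took up 0.265% to 0.325% of the miRNA reads of these libraries, and miR-130b-5p ranked 79 of the 1160 names with a read.

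Experiment 2 gave a like order in the parental line, with medians of 414 for miR-130b-5p, 386 for miR-130b-3p, 288 for miR-301a-3p, 154 for miR-454-3p, 109 for miR-454-5p, 106 for miR-301b-3p and 19.6 for miR-301a-5p, and neighbours in this order overlapped except miR-130b-3p with miR-301a-3p and miR-301b-3p with miR-301a-5p. Of miR-130a-3p, 170 reads were found over the 96 libraries, in 21 of them, with a maximum of 23 reads in 1 Dicer knockout library. It passed the read minimum (10 reads in 6 libraries) of no fit and is not tested below. The other arm of that hairpin, miR-130a-5p, had 0 reads in all 96 libraries, miR-301b-5p had 1121 reads in 53 of them, and the 2 other miRNAs with the family seed had 0 reads (miR-4295) and 28 reads in 1 library (miR-3666).

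**Figure D1:**
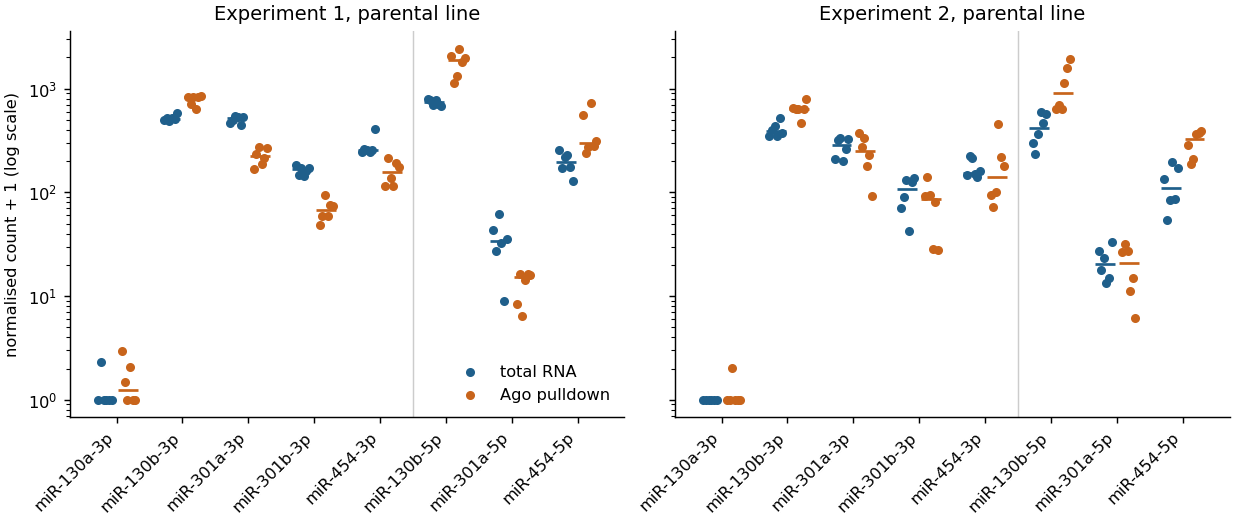
Normalised count plus 1 (log scale) of the 8 members in the 6 parental libraries per fraction of experiment 1 (left) and experiment 2 (right). Points are libraries (total RNA blue, Ago pulldown orange) and bars are medians. miR-130b-5p has the highest median in each fraction and experiment, and miR-130a-3p is at or near 0. In experiment 2 the range of miR-130b-5p overlaps that of miR-130b-3p in both fractions.

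Whether an arm had a higher or lower normalised count in the pulldown than in total RNA was addressed in the 12 parental libraries of an experiment. This is a relative measure, and a lower count does not mean that an arm is not carried by Ago proteins. miR-16-5p and miR-21-5p, given with the other observations, were also lower in the pulldown of experiment 1. In experiment 1 miR-130b-5p, miR-454-5p and miR-130b-3p were higher in the pulldown, while miR-301a-3p, miR-301b-3p, miR-454-3p and miR-301a-5p were lower. All 7 members tested were called (adjusted p under 0.05, limma with Benjamini-Hochberg adjustment over all miRNAs tested, which is the test used throughout), where 65.3% of the 556 miRNAs tested were called. Differences are given as log2 of the normalised count plus 1, with SE, and understate changes at low levels. miR-130b-5p reached 1140, 1883 and 2423 in the pulldown, above every total RNA library, a difference of 1.23 ± 0.16 (adjusted p = 7.85e-06). miR-454-5p reached 241, 297 and 727, overlapping the highest total RNA library, a difference of 0.92 ± 0.18 (adjusted p = 0.00038). On the other side miR-301a-3p stood at 166, 224 and 273 in the pulldown, below every total RNA library, a difference of -1.18 ± 0.14 (adjusted p = 3.40e-06).

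For the remaining members the pulldown minus total RNA difference in experiment 1 was 0.58 ± 0.13 for miR-130b-3p, -0.84 ± 0.17 for miR-454-3p, -1.28 ± 0.17 for miR-301b-3p and -1.31 ± 0.42 for miR-301a-5p. The median over all miRNAs tested was 0.45, so that miR-130b-3p lay near the typical miRNA and 4 members lay on the other side of 0. In experiment 2 the pulldown enrichment of 2 of the 3 5p arms was seen again, with 1.40 ± 0.32 for miR-454-5p (adjusted p = 0.0041) and 1.32 ± 0.35 for miR-130b-5p (adjusted p = 0.0099), and these 2 were the members called where 29.8% of 645 miRNAs were. The third 5p arm, miR-301a-5p, differed by -0.28. In the pulldown of experiment 2 the 9 replicate 1 libraries outside the Dicer knockout had 590 to 1079 of miR-130b-5p and the 9 replicate 2 libraries 1145 to 1950. The miR-130b-5p call was kept with replicate number as a block, and the part of the replicate difference in the result was not tested otherwise. The other 5 were between -0.51 and 0.64, among them miR-130b-3p at 0.64 ± 0.24 (adjusted p = 0.052), which was called with replicate number as a block (adjusted p = 0.028), with a pseudocount of 0.1 (adjusted p = 0.039), and without parental mock pulldown replicate 2 (0.70, adjusted p = 0.043). In experiment 1 miR-130b-3p and miR-301b-3p, whose hairpins are neighbours, thus stood on opposite sides of 0.

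No member passed the test in the PACT knockout. In total RNA the 7 members differed from the parental line by -0.20 to 0.15 and, in the pulldown libraries, by -0.25 to 0.48, and 0 of 7 were called in either fraction, where 1.42% of 422 miRNAs in total RNA and 0% of 897 in pulldown were called. At an unadjusted p under 0.05 the members' count was also 0 in both fractions, where 40 of 422 and 31 of 897 miRNAs were. edgeR and DESeq2 on the recovered reads likewise called 0 members. The SE of these differences was 0.07 to 0.34 in total RNA.

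In the TRBP knockout miR-454-5p rose in both fractions and miR-301b-3p rose in total RNA. In total RNA miR-454-5p stood at 251, 322 and 385 against 127, 196 and 257 in the parental line. The groups met only at the edge, where the lowest TRBP knockout library fell under the highest parental one. The difference was 0.72 ± 0.13 (adjusted p = 0.00021). For miR-301b-3p the knockout libraries (188, 242 and 279) were all above the parental ones (142, 166 and 181), a difference of 0.53 ± 0.12 (adjusted p = 0.0018). These were 2 of 7 members, where 20.4% of miRNAs were called.

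In TRBP knockout pulldown miR-454-5p stood at 484, 596 and 1124 against 241, 297 and 727, a difference of 0.82 ± 0.16 (adjusted p = 0.0014), and it was the 1 member called where 4.01% were. miR-301b-3p differed there by 0.52 ± 0.22, which did not pass (adjusted p = 0.21). The sister arm miR-454-3p differed by 0.05 ± 0.12 in total RNA and 0.01 ± 0.24 in pulldown, and did not pass in either. The 5p to 3p ratio of miR-454 in total RNA, higher by 0.68 ± 0.21, did not pass its own test (adjusted p = 0.10), with 0 of 3 hairpins called where 0.99% of 101 were. It passed when parental dsGFPd replicate 1 was left out (0.84, adjusted p = 0.020) or when the test was kept to hairpins whose arms both averaged at least 50 (0.68, adjusted p = 0.028). All 7 members had a difference at or above 0 in both fractions (miR-130b-3p at 0.00 in total RNA), with a median of 0.25 in total RNA (0.02 over all miRNAs tested) and of 0.39 in pulldown (-0.04 over all).

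The line without both PACT and TRBP had no call for miR-454-5p or miR-301b-3p against the parental line. Its miR-454-5p stood at 154, 232 and 291 in total RNA, overlapping the parental line, with a difference of 0.20 ± 0.13 (adjusted p = 0.38). Tested directly against the TRBP knockout, miR-454-5p was lower in the double knockout by -0.52 ± 0.13 in total RNA (adjusted p = 0.0030) and by -0.74 ± 0.16 in pulldown (adjusted p = 0.0019). In that comparison miR-301b-3p (-0.49 ± 0.12) and miR-301a-3p (-0.57 ± 0.11, adjusted p = 9.12e-05) were also lower and miR-130b-5p was higher (0.21 ± 0.07) in total RNA, making 4 of 7 members called where 35.8% of miRNAs were. The miR-130b-5p call was lost with no filter on low reads (adjusted p = 0.15) and with quantile normalization (0.20, adjusted p = 0.064). In pulldown 2 of 7 were called where 10.7% were, the second being miR-301a-3p (-0.56 ± 0.19, adjusted p = 0.048). That last call was lost when any library but TRBP knockout mock replicate 1 or double knockout dsGFPd replicate 2 was left out (-0.60 to -0.47, adjusted p up to 0.13). It was also lost with no filter, equal sums, quantile normalization or edgeR (-0.56 to -0.44).

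Against the parental line the double knockout had 2 of 7 members called in total RNA, where 14% were. miR-130b-5p stood at 841, 940 and 997, all above the parental libraries, a difference of 0.33 ± 0.07 (adjusted p = 0.00076). miR-301a-3p was lower, at 335, 417 and 465 against 447, 515 and 542, by -0.32 ± 0.11 (adjusted p = 0.039). The miR-301a-3p call was lost with parental mock replicate 2, parental dsGFPc replicate 1, either parental dsGFPd library, double knockout mock replicate 1 or either double knockout dsGFPc library left out (-0.34 to -0.26, adjusted p up to 0.13). It was lost too with no filter (adjusted p = 0.17), equal sums (-0.20) and quantile normalization (-0.22). In pulldown 0 of 7 were called where 2.34% were, and 1 of 7 had an unadjusted p under 0.05, where 115 of 897 miRNAs did. The nearest was miR-130b-3p at 0.43 ± 0.13 (adjusted p = 0.094), which DESeq2 on the recovered reads called (0.48, adjusted p = 0.0012), as did edgeR (0.47, adjusted p = 0.040). The ratio of pulldown to total RNA passed its test for no member in the PACT, TRBP or double knockout (0 of 7 called in each, where 0% of 915 miRNAs were). At an unadjusted p under 0.05 there were 0 of 7 in each, where 33, 38 and 63 of 915 miRNAs were.

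**Figure D2:**
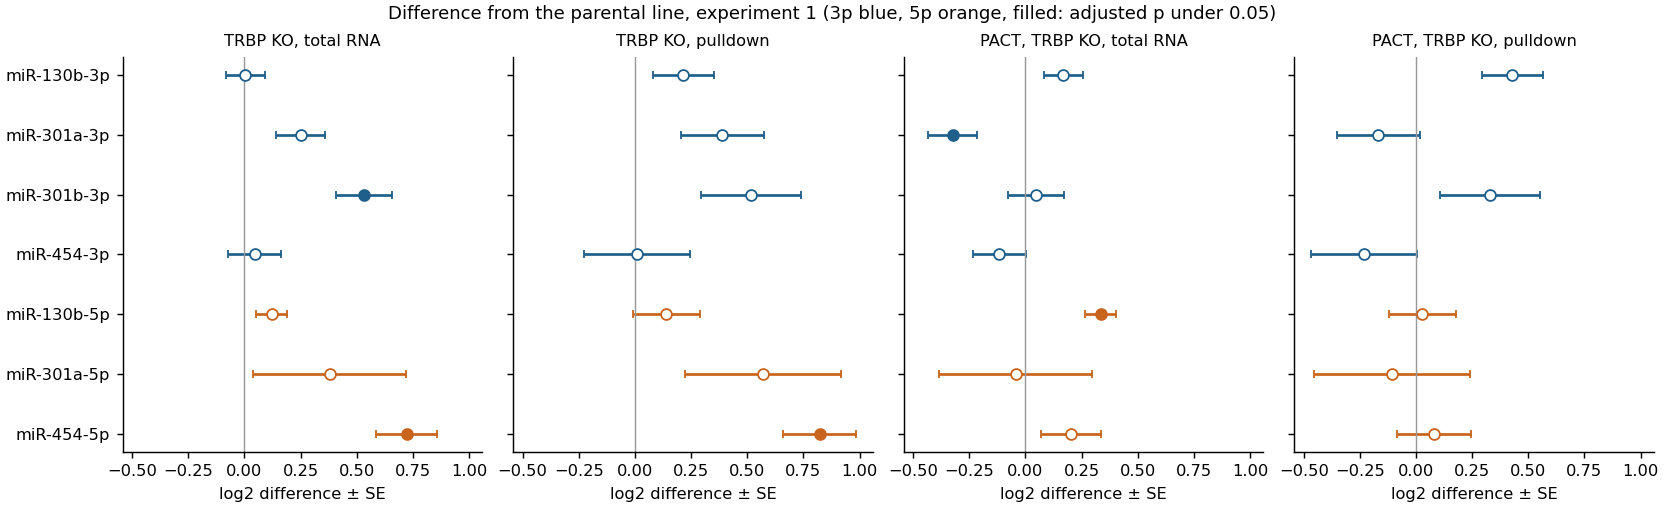
Difference from the parental line (log2, x axis, with SE) for the 7 members tested in the TRBP and the PACT, TRBP knockouts of experiment 1, in total RNA and in Ago pulldown. Filled symbols passed the test; miR-454-5p stands farthest to the right in both TRBP knockout panels, at 0.72 and 0.82.

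In the lines that hold Dicer, transfection of long dsRNA lowered miR-454-5p, and no other member passed the test. In total RNA of the parental line in experiment 1, miR-454-5p had 257 and 230 in the 2 mock libraries, 172 and 175 with dsGFPc, and 217 and 127 with dsGFPd, so that each dsRNA library was below both mock libraries. The same was true of the PACT knockout (268 and 266 in mock, 118 to 193 with dsRNA) and of the TRBP knockout (385 and 363 in mock, 251 to 346 with dsRNA). In the double knockout 3 of the 4 dsRNA libraries were below both mock libraries. Over the 4 lines the mean difference of the 2 dsRNAs from mock was -0.57 ± 0.10 (adjusted p = 0.00018), with -0.46 ± 0.12 for dsGFPc and -0.67 ± 0.12 for dsGFPd. This was 1 of 7 members where 19.4% of 422 miRNAs were called.

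The pulldown of experiment 1 showed the same for miR-454-5p. The parental line had 557 and 727 in mock, 241 and 278 with dsGFPc, and 272 and 315 with dsGFPd. In all 4 lines every dsRNA library, 16 of 16, was below both mock libraries of its line. The difference was -0.82 ± 0.12 (adjusted p = 4.63e-05), again for 1 of 7 members, where 11.3% of 897 miRNAs were called. The miR-454-3p arm differed by 0.23 ± 0.18 in the same libraries and by 0.00 ± 0.09 in total RNA.

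Experiment 2, with the parental line and the Ago2 and Ago1/2 knockouts, gave the decrease again in total RNA. Parental miR-454-5p had 132 and 196 in mock, 52.8 and 86.1 with dsGFPc, and 82.8 and 170 with dsGFPd, so that 3 of the 4 dsRNA libraries were below both mock libraries. The Ago2 knockout had 343 and 311 in mock and 82.5 to 152 with dsRNA, and the Ago1/2 knockout had 719 and 600 in mock and 205 to 321 with dsRNA, with no overlap in either. Over these 3 lines the difference was -1.20 ± 0.21 (adjusted p = 0.0024), 1 of 7 members where 3.48% of 632 miRNAs were called. With the Dicer knockout libraries added to the fit it was -0.98 and no longer passed (adjusted p = 0.093). In the pulldown of experiment 2 the difference of -0.77 ± 0.28 did not pass (adjusted p = 0.71), and 0 of 7 members were called where 0.4% of 750 were. At an unadjusted p under 0.05 there was 1 of 7, where 48 of 750 miRNAs were, and edgeR and DESeq2 called 0 members. There 9 of the 12 dsRNA libraries were below both mock libraries of their line, and the parental line showed the smallest difference (285 and 363 in mock, 188 to 392 with dsRNA, a difference of -0.22). The Dicer knockout was outside the main fits. In its total RNA miR-454-5p had 309 and 879 in mock and 351 to 503 with dsRNA, with 0 of 4 dsRNA libraries below both mock libraries. In its pulldown it had 1071 and 3371 in mock and 588 to 2180 with dsRNA, with 2 of 4 below both.

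Among the other 5p arms miR-301a-5p had differences of -0.47 ± 0.25, -0.54 ± 0.26, -0.94 ± 0.43 and -0.93 ± 0.44 in these 4 fits, none of which passed. miR-130b-5p in total RNA of experiment 1 differed by -0.16 ± 0.05 (adjusted p = 0.054), and it passed with replicate number as a block (adjusted p = 0.047). It also passed when 1 of 5 libraries was left out (parental dsGFPc, PACT knockout dsGFPd, TRBP knockout mock, TRBP knockout dsGFPd and double knockout dsGFPc, each replicate 1; -0.19 to -0.17, adjusted p from 0.026 to 0.045). The 4 3p arms tested had differences from -0.11 to 0.71 over the 4 fits with 0 called. Whether the response differed between lines was tested by the interaction of line and transfection, and 0 of 7 members passed in any fraction of either experiment, where 0%, 0%, 0.158% and 0% of miRNAs did. At an unadjusted p under 0.05 the interaction counts were 1 of 7 in total RNA of experiment 1, where 9 of 422 miRNAs were, and 0 of 7 in each of the others. There 32 of 897 miRNAs were in pulldown of experiment 1, and 33 of 632 and 25 of 750 in total RNA and pulldown of experiment 2.

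**Figure D3:**
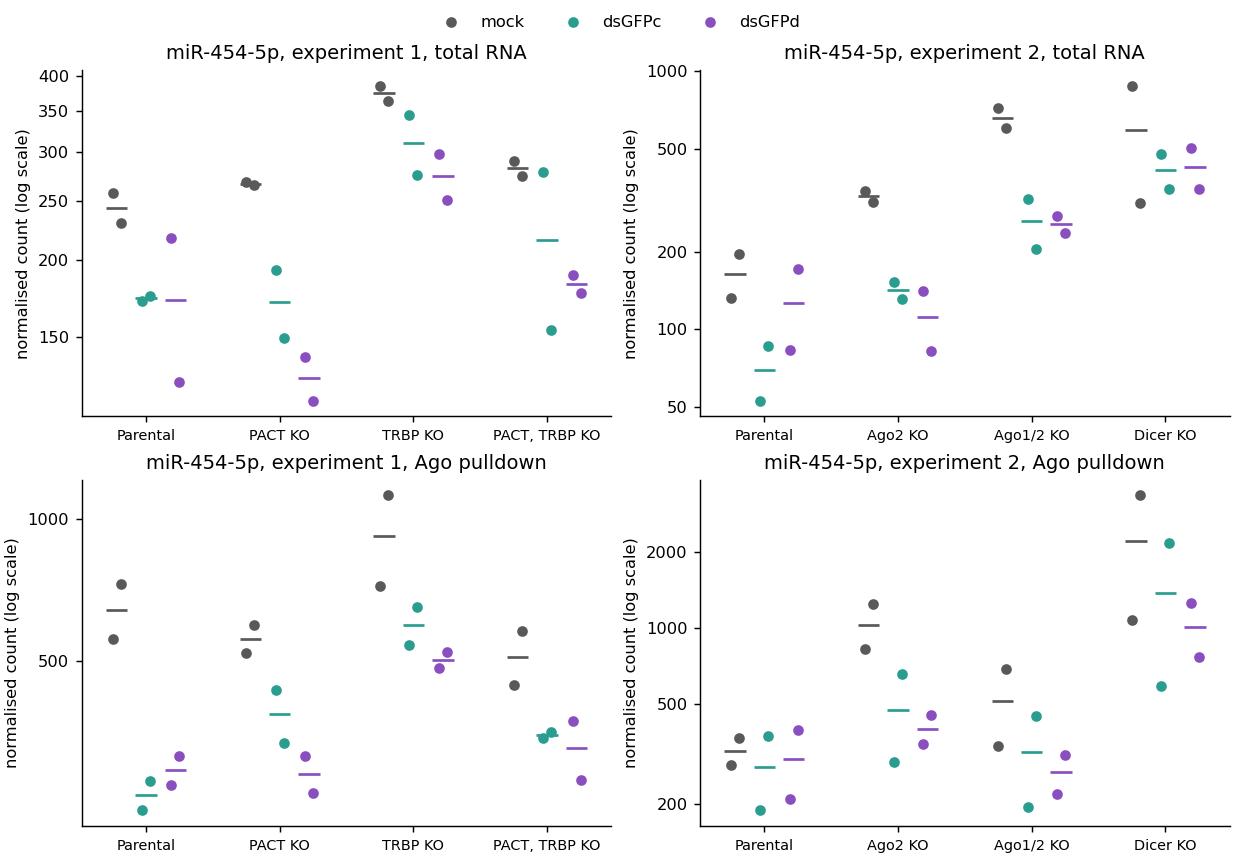
Normalised count of miR-454-5p (log scale) in every library, by line (KO, knockout), with mock in grey, dsGFPc in green and dsGFPd in purple, and the mean of the 2 libraries as a bar. Outside the Dicer knockout mock libraries stand above most dsRNA libraries of their line, though in parental pulldown of experiment 2 only 2 of 4 dsRNA libraries lie below both. The Ago1/2 knockout in total RNA stands above the parental line in all 6 libraries.

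In the Ago1/2 knockout the 2 arms moved in opposite directions in total RNA. Of the members 3 of 3 5p arms rose, where 25.8% of 632 miRNAs did, and 3 of the 4 3p arms tested fell, where 19.8% did. Together these were 6 of 7 members, where 45.6% of miRNAs were called. The medians over the members' arms were 1.68 for 5p and -0.99 for 3p, against 0.01 for all 264 5p names tested and 0.32 for all 249 3p names. In bulk RNA a change of level per cell and a change in the number of cells that hold a miRNA cannot be told apart.

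The hairpin miR-454 showed this most clearly. In total RNA miR-454-5p stood at 205, 298 and 719 in the Ago1/2 knockout, above every parental library (52.8, 109 and 196), a difference of 1.68 ± 0.24 (adjusted p = 2.52e-06). Its sister miR-454-3p stood at 33.6, 46.4 and 70.8, below every parental library (139, 154 and 225), a difference of -1.83 ± 0.22 (adjusted p = 1.62e-07). Reads were ample for both, with 478 to 3573 of miR-454-5p and 79 to 211 of miR-454-3p per Ago1/2 knockout library.

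The hairpin miR-301a moved mainly in its minor arm. miR-301a-5p stood at 22.5, 149 and 210 against 12.5, 19.6 and 32 in the parental line, with 1 knockout library inside the parental range, a difference of 2.22 ± 0.49 (adjusted p = 0.00064). miR-301a-3p stood at 165, 205 and 253 against 198, 288 and 336, a difference of -0.37 ± 0.20 that did not pass (adjusted p = 0.14), though it did with quantile normalization (-0.73), edgeR (-0.66) and DESeq2 (-0.63). From the other locus miR-301b-3p fell by 1.14 ± 0.27 (adjusted p = 0.0011), from a parental range of 41.8, 106 and 137 to 20.9, 40.9 and 82.9.

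From the same locus miR-130b-3p fell from 350, 386 and 521 in the parental line to 188, 226 and 257, with no overlap, a difference of -0.85 ± 0.17 (adjusted p = 0.00020). miR-130b-5p rose from 233, 414 and 599 to 497, 616 and 721 with overlap, by 0.62 ± 0.22 (adjusted p = 0.027). This call was lost without parental mock or dsGFPc replicate 1 or Ago1/2 knockout dsGFPc replicate 2 (0.44 to 0.58, adjusted p up to 0.086), and with quantile normalization (0.23), edgeR (0.28) and DESeq2 (0.29). With the Dicer knockout libraries in the fit the calls of miR-130b-3p, miR-130b-5p and miR-301b-3p were lost (adjusted p from 0.10 to 0.28). miRNAs with a partly like seed were also compared: miR-148a-3p (-2.35 ± 0.15), miR-148b-3p (-2.63 ± 0.36) and miR-152-3p (-1.42 ± 0.18) fell, while miR-19a-3p (-0.05 ± 0.25) and miR-19b-3p (-0.45 ± 0.24) did not pass.

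The Ago2 knockout differed in the same directions in total RNA, with smaller values whose difference from the Ago1/2 knockout was not tested. miR-130b-3p stood at 176, 256 and 315, below every parental library, and fell by 0.67 ± 0.17 (adjusted p = 0.0052). miR-454-3p stood at 83.0, 110 and 127, also below every parental library, and fell by 0.66 ± 0.22 (adjusted p = 0.038). These were 2 of 7 members where 19.3% were called. The miR-454-3p call was lost with any of 8 of the 12 libraries left out, all but parental dsGFPc and dsGFPd replicate 2, Ago2 knockout dsGFPc replicate 1 and Ago2 knockout dsGFPd replicate 2 (-0.68 to -0.56, adjusted p up to 0.11). Both calls were lost with every library scaled to the same sum (miR-130b-3p -0.51, adjusted p = 0.054, and miR-454-3p -0.50, adjusted p = 0.12) and with the Dicer knockout libraries in the fit. With the replicate 1 libraries left out, which leaves 1 per group, the differences were -0.46 for miR-130b-3p and -0.38 for miR-454-3p. Without replicate 2 that of miR-454-3p was -0.93.

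Of the rest in Ago2 knockout total RNA, miR-454-5p (0.64 ± 0.24, adjusted p = 0.066) and miR-301b-3p (-0.71 ± 0.27, adjusted p = 0.069) stood near the threshold. miR-454-5p passed without parental or Ago2 knockout dsGFPd replicate 2 (0.81 to 0.87) and when every library was scaled to the same sum (0.80, adjusted p = 0.023). miR-301b-3p passed without parental or Ago2 knockout mock replicate 2 (-0.87 to -0.85), and also with edgeR (-0.80, adjusted p = 0.038), DESeq2 (-0.82, adjusted p = 0.017), quantile normalization (-0.90, adjusted p = 0.017), a pseudocount of 10 (-0.64, adjusted p = 0.049) and replicate number as a block (adjusted p = 0.0497). The remaining differences were 0.99 ± 0.49 for miR-301a-5p, 0.46 ± 0.22 for miR-130b-5p and -0.18 ± 0.20 for miR-301a-3p.

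In pulldown more members passed in the Ago2 than in the Ago1/2 knockout, and the difference between these lines was not tested. The same reversal was seen in miR-148a-3p, whose mean in total RNA was 12938 in the parental line, 5609 in the Ago2 and 2558 in the Ago1/2 knockout, and in pulldown 8133, 1533 and 3914. Listed in the same order of lines, miR-148b-3p had means of 2417, 806 and 328 in total RNA against 414, 92 and 222 after pulldown. For miR-152-3p they were 308, 217 and 115 against 235, 87.9 and 164, so that the Ago2 knockout was the lowest of the 3 lines in pulldown only. Whether a mismatch of labels has a part in this was not tested, and the pulldown values of both knockouts below rest on their labels. In the Ago2 knockout 4 of 7 members were called where 35.9% of 750 miRNAs were. miR-454-3p was at 0.148, 24.4 and 32.4 there, below every parental library (70.5, 140 and 453), a difference of -3.31 ± 0.65 (adjusted p = 0.00039). Its lowest value, in mock replicate 1, was a single read, and without that library the difference was -2.52 (adjusted p = 0.00014). miR-130b-3p fell by 0.90 ± 0.24 (adjusted p = 0.0062), from 464, 633 and 792 to 221, 316 and 480.

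On the 5p side of the Ago2 knockout pulldown, miR-301a-5p rose by 1.62 ± 0.51 (adjusted p = 0.018), from 5.17, 19.7 and 30.5 to 19, 41.9 and 191. miR-454-5p rose by 0.94 ± 0.32 (adjusted p = 0.025), from 188, 324 and 392 to 292, 552 and 1240, with overlap. The miR-301a-5p call was lost without parental mock replicate 2 or Ago2 knockout mock replicate 1 (1.33 to 1.34). The miR-454-5p call was lost without parental mock or dsGFPc replicate 1 or Ago2 knockout mock or dsGFPc replicate 2 (0.80 to 0.85, adjusted p up to 0.071). Both were also lost with equal sums (0.97 for miR-301a-5p and 0.27 for miR-454-5p), with quantile normalization (1.37 and 0.68) and with edgeR (1.25 and 0.73). With the Dicer knockout libraries in the fit these 2 calls and that of miR-130b-3p were lost (adjusted p = 0.17 for miR-301a-5p, 0.11 for miR-454-5p and 0.084 for miR-130b-3p). The median over all miRNAs tested was -0.39 in this comparison and -0.82 with equal sums.

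In the Ago1/2 knockout pulldown 0 of 7 members were called where 7.07% were. At an unadjusted p under 0.05 there were 3 of 7, where 131 of 750 miRNAs were. The differences were -1.39 ± 0.65 for miR-454-3p, -0.66 ± 0.24 for miR-130b-3p, 1.17 ± 0.51 for miR-301a-5p and 0.20 ± 0.32 for miR-454-5p. Replicate numbers pair the libraries of this fraction, and with replicate number as a block miR-130b-3p passed (-0.66, adjusted p = 0.025). DESeq2 called miR-130b-3p (-0.69) and miR-454-3p (-1.69), and edgeR called 0 members.

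The change of the pulldown to total RNA ratio was tested directly, with 36 libraries, and rests on matching labels in the 2 fractions. For miR-148a-3p it was -1.23 ± 0.23 in the Ago2 and 1.29 ± 0.23 in the Ago1/2 knockout. Against the parental line it was lower for miR-454-3p in the Ago2 knockout, by -2.65 ± 0.69 (adjusted p = 0.0076), 1 of 7 members where 11.3% of 887 miRNAs were called. It was lower for miR-454-5p in the Ago1/2 knockout, by -1.47 ± 0.41 (adjusted p = 0.012), 1 of 7 members where 10.8% were called. That second call was lost with quantile normalization (-1.06, adjusted p = 0.075) and with the replicate 1 libraries alone left out (-0.82, adjusted p = 0.45). The first was lost with the replicate 2 libraries left out (-2.16, adjusted p = 0.18). In the Ago1/2 knockout all 3 5p arms had a negative difference and all 4 3p arms a positive one, of which only miR-454-5p passed.

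**Figure D4:**
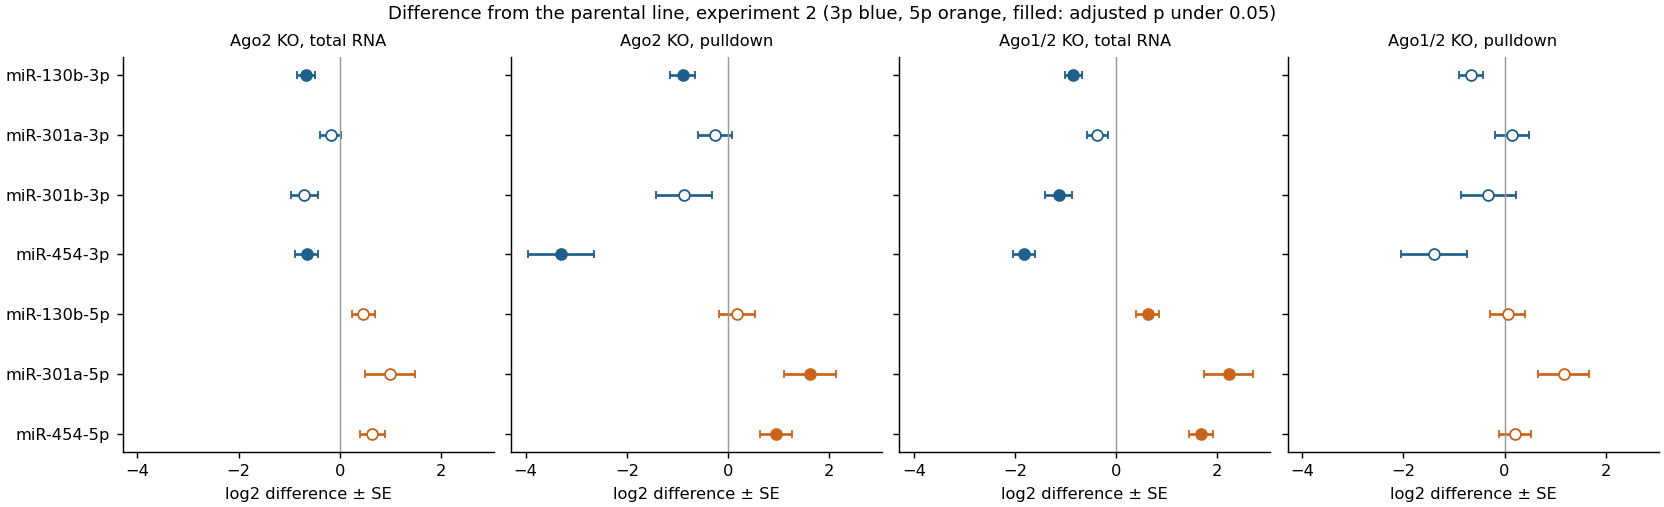
Difference from the parental line (log2, x axis, with SE) for the 7 members tested in the Ago2 and Ago1/2 knockouts of experiment 2, in total RNA and in Ago pulldown, with 3p arms in blue and 5p arms in orange. Filled symbols passed the test; in total RNA all 3p arms lie left of 0 and all 5p arms right of it, and the values for miR-454-3p are -0.66, -3.31, -1.83 and -1.39 from left to right.

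The ratio of the 2 arms of a hairpin within a library does not depend on a factor per library, apart from the count of 1 added to each arm, which matters where reads are few. In parental total RNA the 5p arm made up 53.7%, 59.2% and 61.2% (lowest, median and highest) of the reads of miR-130b, 23.6%, 43.2% and 51.2% of those of miR-454, and 1.73%, 5.89% and 10.0% of those of miR-301a in experiment 1. In experiment 2 the shares were 37.0%, 46.7% and 63.0% for miR-130b, 19%, 42.8% and 57.0% for miR-454 and 5.04%, 6.08% and 11.3% for miR-301a. Thus miR-301a gave mainly 3p reads in both, while miR-130b gave mainly 5p in experiment 1 and fell on either side of equal shares in experiment 2. In the PACT, TRBP and double knockouts 0 of 3 hairpins changed their ratio in total RNA, where 0%, 0.99% and 1.98% of 101 hairpins were called. At an unadjusted p under 0.05 the counts were 0, 1 and 0 of 3, where 2, 13 and 10 of 101 hairpins were.

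In the Ago1/2 knockout all 3 ratios rose in total RNA, where 23.2% of 151 hairpins rose, 60.3% were called in either direction and their median difference was -0.53, towards 3p. For miR-454 the 5p share was 79.5%, 88.2% and 94.9%, against 19%, 42.8% and 57.0% in the parental line, with no overlap, and the log2 ratio rose by 3.50 ± 0.37 (adjusted p = 4.89e-07). For miR-301a it was 11%, 38.8% and 53.8% against 5.04%, 6.08% and 11.3%, and the log2 ratio rose by 2.59 ± 0.58 (adjusted p = 0.00099). For miR-130b it was 66.4%, 73.3% and 79.4% against 37.0%, 46.7% and 63.0%, with no overlap, and the log2 ratio rose by 1.47 ± 0.29 (adjusted p = 0.00033). In pulldown in place of total RNA the differences were 1.60, 1.02 and 0.72 in the same order, and none passed.

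In the Ago2 knockout the total RNA ratios rose by 1.30 ± 0.37 for miR-454 (adjusted p = 0.014) and by 1.13 ± 0.29 for miR-130b (adjusted p = 0.0071), 2 of 3 where 13.2% of 151 rose, 35.8% were called in either direction and the median was -0.34. With the replicate 1 libraries left out, which leaves 1 per group, these differences were smaller, at 0.46 for miR-454 and 0.73 for miR-130b. The ratio of miR-301a differed by 1.17 ± 0.58 (adjusted p = 0.13), and passed with replicate number as a block (adjusted p = 0.043). In the Ago2 knockout pulldown the 5p share of miR-454 was 90.0%, 96.2% and 100%, against 44.5%, 68.0% and 75.3% in the parental line. There the miR-301a ratio passed (1.88, adjusted p = 0.0026) and the miR-130b ratio did not (1.08, adjusted p = 0.11).

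Pulldown against total RNA in the parental line moved the miR-454 ratio towards 5p, by 1.76 ± 0.33 in experiment 1 (adjusted p = 0.00080). The miR-130b ratio rose there by 0.66 ± 0.24 (adjusted p = 0.041), making 2 of 3 hairpins where 50.8% of 122 were called. The miR-130b call was lost without total RNA mock replicate 1 or any 1 of the 6 replicate 2 libraries (0.54 to 0.68, adjusted p up to 0.085). In experiment 2 the miR-454 ratio differed by 1.57 ± 0.54, short of the threshold (adjusted p = 0.055), with 0 of 3 called where 18.8% of 144 were. At an unadjusted p under 0.05 there was 1 of 3, where 54 of 144 hairpins were. With dsRNA the miR-454 ratio fell by 0.57 ± 0.16 in total RNA of experiment 1 (adjusted p = 0.0093), 1 of 3 where 22.8% were called. In the other 3 fits it differed by -1.04, -1.38 and -1.28, none of which passed, where 4.55%, 0.662% and 0% of hairpins were called.

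**Figure D5:**
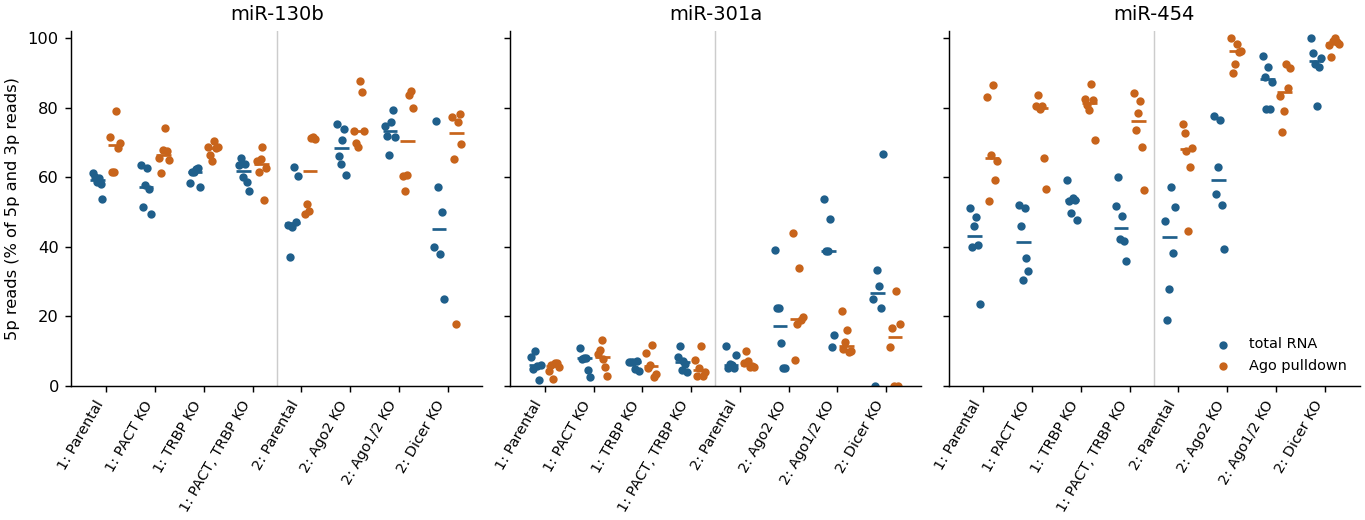
Share of 5p reads among the 5p and 3p reads of miR-130b, miR-301a and miR-454 (y axis, percent) in every library, by line (x axis, experiment number and line, KO for knockout). Total RNA is blue, Ago pulldown orange and bars are medians; the miR-454 share rises from a parental median of 42.8% to 88.2% in Ago1/2 knockout total RNA.

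The Dicer knockout libraries held few family reads. In total RNA the family made up 0.0149% to 0.185% of the miRNA reads, against 0.212% to 0.312% in the parental line. Per library there were 0 to 7 reads of miR-454-3p, 1 to 7 of miR-301a-3p, 0 to 3 of miR-301b-3p, 3 to 36 of miR-130b-3p and 1 to 22 of miR-130b-5p, but 17 to 44 of miR-454-5p. The member with a usually middling level was thus the most abundant one here.

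Of the 3p arms miR-454-3p, miR-301a-3p and miR-301b-3p, and of miR-301a-5p, no Dicer knockout total RNA library held 10 reads. They met the read minimum only through the 6 parental libraries, so fewer reads in the knockout were built into the choice and the differences are given as a description, with no test: -3.15 for miR-454-3p, -2.61 for miR-301b-3p, -2.52 for miR-301a-3p and -0.48 for miR-301a-5p on the authors' scaling. miR-130b-5p (1 to 22 reads per knockout library) differed by -2.05 ± 0.56 and miR-130b-3p (3 to 36 reads) by -1.93 ± 0.48. Each had under 10 reads in some knockout libraries and met the minimum mainly through the parental libraries, so these are also a description. miR-454-5p, with 17 to 44 reads per knockout library, met the minimum in either line. It was higher, at 309, 416 and 879 against 52.8, 109 and 196, by 2.03 ± 0.42 (adjusted p = 0.0014). Of the 386 miRNAs tested 55.4% were called, and the median over all was -0.64. miR-454-5p was also called without any 1 library of this fit. The direction for miR-454-5p depended on the scaling: with libraries scaled on 6 entries that overlap other small RNAs it was -3.13 (adjusted p = 0.00021), and it was not called with equal sums (0.45), quantile normalization (0.86) or edgeR (1.02). Equal sums moved the median over all miRNAs from -0.64 to -1.98.

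In Dicer knockout pulldown the values were like those in total RNA. miR-454-5p (56 to 236 reads per library) was higher by 2.14 ± 0.52 (adjusted p = 0.0034) on the authors' scaling and lower by -4.91 (adjusted p = 7.99e-06) on the 6 entries, and with equal sums it was 0.53 and not called. miR-130b-5p (-1.97 ± 0.61, 12 to 34 reads per library) was lower and called, where 52.1% of 507 miRNAs were called. miR-130b-3p (-2.15 ± 0.50) was lower on 5 to 56 reads per library. miR-301a-3p (-2.26 ± 0.87) was lower on 1 to 14 reads per library. Both of these 3p arms met the read minimum mainly through the parental libraries, so their differences are given as a description. Again miR-454-3p (0 to 7 reads, -3.63) and miR-301a-5p (0 to 3 reads, -1.18) met the read minimum only through the parental libraries. Without any 1 library but Dicer knockout mock or dsGFPd replicate 2, the miR-301a-3p difference was -2.53 to -1.64.

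The 5p share of miR-454 in Dicer knockout total RNA was 80.6%, 93.6% and 100%, all above the parental libraries. The log2 ratio differed by 5.18 ± 1.10, given as a description because its 3p arm had 0 to 7 reads there and met the minimum only through the parental libraries. Of 80 hairpins 31.2% were called, with a median of 0.91. The ratio of miR-301a differed by 2.03 ± 0.82, on 0 to 2 reads of its 5p arm and 1 to 7 of its 3p arm per library. Both arms met the minimum only through the parental libraries, so this too is a description. It was 2.18 with equal sums, 3.22 with quantile normalization and 2.20 with a pseudocount of 10. The ratio of miR-130b differed by -0.12 ± 0.69.

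Which other miRNAs varied like the members was described over the 21 group means of total RNA outside the Dicer knockout, centred within each experiment, for 416 miRNAs. These means share their libraries and depth. miR-454-3p was most like miR-18a-5p (Pearson r = 0.94) and miR-10b-5p (r = 0.94), and miR-130b-3p most like miR-17-5p (r = 0.90) and miR-106a-5p (r = 0.87). miR-301b-3p went with miR-18a-5p and miR-362-5p (r = 0.79 for both), and miR-301a-3p with miR-501-5p (r = 0.70) and miR-33a-5p (r = 0.63). On the 5p side miR-454-5p went with miR-148b-5p (r = 0.81) and let-7c-3p (r = 0.78), miR-301a-5p with miR-152-5p (r = 0.82) and miR-551b-5p (r = 0.79), and miR-130b-5p with miR-181a-3p (r = 0.79) and miR-125b-2-3p (r = 0.75).

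Within the family r was positive between arms of the same side and negative between the 2 arms of a hairpin. miR-454-5p and miR-301a-5p had r = 0.86 and miR-454-5p and miR-130b-5p had r = 0.69, while miR-454-3p and miR-130b-3p had r = 0.79. Among the 3p arms miR-301a-3p was less like the others, with r = 0.25 to miR-130b-3p and 0.48 to miR-454-3p, though 0.75 to miR-301b-3p. The 2 arms of one hairpin had r = -0.67 for miR-454, -0.70 for miR-130b and -0.07 for miR-301a. The Ago knockout groups are 6 of these 21 means, and the opposite differences of the arms in them are described above.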

How the data were processed

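Members and lists were chosen with earlier results of these data known. The submitters' processing notes name STAR and GRCh38; which program counted and normalised the reads, on which annotation, is not given in the sources used here. The authors deposited a normalised signal for each miRNA, in 1 column per library. Division by a column's smallest positive value gave whole reads for 100% of the values (tolerance 0.01). Of 2883 rows, 2652 mature names were kept (for repeated names, the row with the most reads), and 231 rows were set aside; members have 1 row each. Per library, depth ranged from 39916 to 13457933 reads; at low reads counting error limits precision.

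A miRNA was tested with at least 10 reads in at least 6 libraries of the fit. limma 3.58.1 in R 4.3.3 (eBayes with trend, and robust except for arm ratios) was run on log2(value + 1), since the files hold normalised values and not the counts that edgeR needs. Fits had terms for line and transfection (24 libraries in experiment 1, 18 for the Ago knockouts, 12 for the Dicer knockout); dsRNA was an F test of both dsRNA terms, and pulldown ratios were line by fraction interactions over 48 or 36 libraries. Benjamini-Hochberg adjustment was over all miRNAs tested, at 0.05. Scripts were tested on simulated data. The arm ratio tests for dsRNA and the dsRNA by line interactions were added after seeing the data. Alternatives were edgeR 4.0.16 and DESeq2 1.42.0 on recovered reads, other pseudocounts (0.1, 0.5 and 10), filters, scalings and library sets, a replicate block, and each library left out. Named besides the members are miRNAs of the same hairpins or seed, miR-19a-3p, miR-19b-3p, miR-148a-3p, miR-148b-3p, miR-152-3p and the 2 other miRNAs most like each member; the checks of labels and pulldown (miR-451a, miR-486-5p, miR-21-5p and miR-16-5p) are given with the other observations. Replicate numbers pair the libraries in pulldown of experiment 2, where the deviations of same-numbered libraries correlated in 36 of 36 pairs of groups (r from 0.11 to 0.61).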

Additional observations from a re-analysis of the deposited data

Results flagged for a closer look

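In groups of 6 libraries 1 library stood apart by Dixon's test in 10 of 112 groups, where chance gives about 1 in 20. Each group pooled the mock, dsGFPc and dsGFPd libraries of 1 line. A difference between transfections can thus also set a library apart, and the rate of 1 in 20 is only a guide. In experiment 1 total RNA, parental dsGFPd replicate 2 was high for miR-130b-3p (584, the others 488 to 522) and for miR-454-3p (411, the others 244 to 259), and PACT knockout dsGFPd replicate 1 was high for miR-454-3p (318, the others 226 to 256). In experiment 1 pulldown, TRBP knockout mock replicate 2 was high for miR-454-5p (1124, the others 484 to 721) and for miR-301a-5p (40.2, the others 9.79 to 20.3). In the Ago1/2 knockout, dsGFPd replicate 2 in total RNA was high for miR-301b-3p (82.9, the others 20.9 to 43.8) and mock replicate 1 in pulldown for miR-301a-5p (85.7, the others 22 to 44.3). The rest were Dicer knockout libraries with few reads: in total RNA mock replicate 2 for miR-130b-3p (384, 36 reads) and mock replicate 1 for miR-454-5p (879, 27 reads), and in pulldown mock replicate 1 for miR-301b-3p (525, 49 reads).

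The pulldown to total RNA ratio differed between lines for 2 members by a test of the difference: for miR-454-3p between the Ago2 knockout and the parental line (-2.65), and for miR-454-5p between the Ago1/2 knockout and the parental line (-1.47). Both values rest on matching Ago2 and Ago1/2 labels in total RNA and pulldown, which was not tested.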

How the results depend on the processing

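Of 57 differences called for a member or hairpin, 49 stayed called with each library left out in turn, where the member was still tested, and 19 under every alternative and left-out library. The 57 include Dicer knockout members and hairpins that met the read minimum only or mainly through the parental libraries, described above without a test. Fewer reads in the knockout were built into those calls. All counts for the Dicer knockout here and below include them. Counts below are members (or hairpins, for arm ratios) called. With the Dicer knockout libraries in the fit the count was 0 in Ago2 and 3 in Ago1/2 total RNA, 1 in Ago2 pulldown and 0 for dsRNA in experiment 2 total RNA. With equal sums it was 1 in Ago2 total RNA, 2 in Ago2 pulldown, 3 for the Ago2 pulldown ratio, 2 for dsRNA in experiment 1 total RNA, 1 in double knockout pulldown, 1 for double against TRBP knockout pulldown and 2 for Dicer arm ratios. With quantile normalization it was 1 in double knockout total RNA, 1 for double against TRBP knockout pulldown, 2 in Ago2 pulldown, 0 for the Ago1/2 pulldown ratio, 2 for Dicer arm ratios, and 1 for arm ratios of pulldown against total RNA in experiments 1 and 2 and of dsRNA in experiment 1 pulldown. With edgeR it was 1 in double knockout pulldown, 1 for double against TRBP knockout pulldown and 2 in Ago2 pulldown; with DESeq2, 2 for dsRNA in experiment 1 total RNA, 1 in double knockout pulldown and 2 in Ago1/2 pulldown. With no filter it was 1 in double knockout and in Ago2 total RNA and 1 for double against TRBP knockout pulldown. A pseudocount of 0.1 gave 2 for dsRNA in experiment 1 total RNA; one of 10 gave 2 for Dicer arm ratios and 1 for arm ratios of pulldown against total RNA in experiment 2 and of dsRNA in experiment 1 pulldown and experiment 2 total RNA. Keeping to hairpins whose arms both averaged at least 50 gave 1 for those same 3 and for the TRBP knockout. Pulldown in place of total RNA gave 0 for Ago1/2 arm ratios. The cause was not tested. On the 6 entries overlapping other small RNAs, miR-454-5p in the Dicer knockout reversed to -3.13 in total RNA and -4.91 in pulldown.

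With replicate number as a block the count was 2 for dsRNA in experiment 1 total RNA, 1 in double knockout pulldown, 1 in Ago1/2 pulldown and 1 for the dsRNA arm ratio in experiment 1 pulldown, and no other count moved by more than 1.5 times. Same-numbered libraries correlated above 0.1 in 11 of 66 pairs of groups in experiment 1 total RNA, 21 of 66 in its pulldown and 8 of 36 in experiment 2 total RNA. The highest r was 0.22, 0.24 and 0.32 in this order. Pairing by number was thus weaker there than in the pulldown of experiment 2, and whether same-numbered libraries share a batch was not tested.

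With 1 library, or all libraries of 1 replicate number, left out, the count ranged in total RNA from 1 to 2 (TRBP knockout), 0 to 2 (double), 2 to 4 (double against TRBP), 0 to 3 (Ago2), 3 to 6 (Ago1/2), 0 to 6 (Dicer), and for dsRNA 0 to 3 in experiment 1 and 0 to 1 in experiment 2. In pulldown it ranged from 0 to 2 (TRBP), 0 to 1 (double), 0 to 2 (double against TRBP), 3 to 4 (Ago2), 0 to 1 (Ago1/2), 1 to 5 (Dicer), and for dsRNA 0 to 1 in both experiments. Pulldown against total RNA gave 4 to 7 and 2 to 4, the pulldown ratio 0 to 1 (Ago2) and 0 to 3 (Ago1/2), and arm ratios 0 to 1 (TRBP), 0 to 3 (Ago2), 3 to 3 (Ago1/2), 0 to 2 (Dicer), 1 to 2 and 0 to 1 (pulldown against total RNA) and 0 to 1 for dsRNA in 3 fits. The counts for the PACT knockout, the pulldown ratios of experiment 1, the double knockout's arm ratios and the dsRNA arm ratio in experiment 2 pulldown were 0 throughout. Depth limits the Dicer knockout most, where 1 read is worth up to 32.5 normalised counts. Its ranges also count members and hairpins that met the read minimum only or mainly through the parental libraries.

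Leaving out all libraries of 1 replicate number, which leaves 1 per group, ended several calls of miR-454-5p without changing their direction. Without replicate 2 the TRBP knockout pulldown difference was 0.79. The dsRNA differences of experiment 1 were then -0.43 in total RNA and -0.60 in pulldown. Double against TRBP knockout gave -0.46 in total RNA and -0.58 in pulldown, and parental pulldown against total RNA of experiment 1 gave 0.64. Without replicate 1 the difference was 0.93 in Ago2 knockout pulldown, 1.24 in Dicer knockout total RNA and -0.82 for the Ago1/2 pulldown ratio. In experiment 2 total RNA the dsRNA difference was -1.24 without replicate 1 and -1.16 without replicate 2.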

Other observations

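Other miRNAs named by the same rule gave these values. miR-486-5p, which in other systems is matured with the help of Ago2 cleavage, rose in total RNA of the Ago2 knockout by 0.87 ± 0.18 (adjusted p = 0.00068, limma) and of the Ago1/2 knockout by 1.71 ± 0.18 (adjusted p = 1.29e-08). miR-451a, whose hairpin is cut by Ago2 in place of Dicer, had 44 reads in 6 of the 96 libraries. Of the miRNAs that the labels name for checking the pulldown, miR-16-5p differed between pulldown and total RNA of the parental line in experiment 1 by -0.66 ± 0.12 (adjusted p = 0.00019) and miR-21-5p by -0.61 ± 0.17 (adjusted p = 0.0067).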
